A study of Mus musculus with 14 samples.

Results

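MyoD ChIP-seq peaks that lie in introns were examined in activated muscle stem cells (ASCs), the progenitors that enter the cell cycle and rebuild myofibers after injury. Peaks of the 3 ASC MyoD libraries were pooled, those overlapping by at least 1 bp were merged into regions, and a region was kept when at least 2 of the 3 libraries had a peak in it. The annotation of the peak with the highest score, which is the authors' −10 × log10 of the MACS p-value, gave each region its class. Of the 1985 regions kept, 699 were intronic (35.2%, 95% Wilson interval 33.1% to 37.3%), and these intronic MyoD regions are described here. A further 705 regions were distal intergenic, 451 were at promoters, which in this annotation reach up to 3 kb from the transcription start site (TSS), and 130 fell in other gene parts. Because the regions were selected on the ASC MyoD peaks and their scores, those values are given as a description.

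All mice were labelled wild-type and carried a mito-Dendra2 allele under a Pax7-Cre(ERT2) driver, so that satellite cells and everything descended from them are fluorescent. Each received 75 mg/kg tamoxifen by intraperitoneal injection daily for 5 days. At 2 days after the last dose, 50 µL of 1.2% BaCl2 was injected into one tibialis anterior (TA) muscle and saline into the opposite TA, and cells were sorted at 2 days post injury (dpi). ASCs were the CD34-, Dendra2+, DAPI- cells of injured TA, and quiescent cells (QSCs) were the CD34+, Dendra2+, DAPI- cells of the saline-injected TA, so QSCs had also been exposed to tamoxifen and came from injected muscle. Chromatin was fixed in 1% formaldehyde, sheared to about 500 bp and recovered with an antibody to MyoD or MyoG. Each of the 4 groups (ASC MyoD, ASC MyoG, QSC MyoD, QSC MyoG) had 3 ChIP libraries, and 2 input libraries were not analysed here. The study calls the libraries of a group biological replicates, and the labels do not say which mice each came from, so p-values measure the spread between these libraries. Peak lists hold no expression values, so the identity of the sorted cells could not be checked against marker genes, and a group could differ in peak number through read depth, which is unknown.

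MyoD is a basic helix-loop-helix transcription factor of the muscle lineage that binds DNA as a dimer with E-proteins such as the product of Tcf12. Its core motif is the E-box, CA followed by any 2 bases and TG (CANNTG), and the form CAGCTG is a preferred site. MyoG is a related factor that acts later, during differentiation. Introns, and the first intron in particular, commonly hold enhancers, which are stretches of DNA that regulate transcription from a distance.

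The sequences at hand are RefSeq windows from 250 bases before to 50 bases after a TSS (GRCm38.p6, the assembly of mm10), and such windows overlapped 4 intronic MyoD regions, each through a noncoding gene annotated inside the host gene's intron. They are shown because they let the letters under a region be read beside its peaks. The stretch inside the region is printed 5′ to 3′ on the strand of the noncoding gene, in lower case with every E-box (CANNTG, which reads the same on both strands as a pattern) in capitals.
Notch2 intron 1 (RefSeq Gm40103, chr3:98026059-98026358, minus strand): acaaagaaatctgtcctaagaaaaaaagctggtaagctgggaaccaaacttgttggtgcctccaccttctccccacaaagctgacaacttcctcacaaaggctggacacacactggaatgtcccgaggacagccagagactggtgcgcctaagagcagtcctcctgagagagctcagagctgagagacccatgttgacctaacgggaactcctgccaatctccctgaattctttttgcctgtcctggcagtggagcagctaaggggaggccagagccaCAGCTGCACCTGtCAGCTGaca
Eml6 intron 17 (RefSeq Gm39671, chr11:29808634-29808933, plus strand): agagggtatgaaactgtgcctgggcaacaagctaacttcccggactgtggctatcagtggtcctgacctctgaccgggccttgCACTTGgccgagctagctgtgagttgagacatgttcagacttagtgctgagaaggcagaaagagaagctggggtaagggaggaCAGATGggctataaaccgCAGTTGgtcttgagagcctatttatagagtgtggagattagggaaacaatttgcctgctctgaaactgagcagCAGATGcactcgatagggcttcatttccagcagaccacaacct
Pknox2 intron 1 (RefSeq Gm34538, chr9:37053824-37054007, plus strand): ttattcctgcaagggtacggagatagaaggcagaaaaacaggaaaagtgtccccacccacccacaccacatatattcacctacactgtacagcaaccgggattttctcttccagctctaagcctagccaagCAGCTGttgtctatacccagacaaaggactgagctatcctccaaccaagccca
Ric8b intron 9 (RefSeq Gm34633, chr10:85003970-85004269, minus strand): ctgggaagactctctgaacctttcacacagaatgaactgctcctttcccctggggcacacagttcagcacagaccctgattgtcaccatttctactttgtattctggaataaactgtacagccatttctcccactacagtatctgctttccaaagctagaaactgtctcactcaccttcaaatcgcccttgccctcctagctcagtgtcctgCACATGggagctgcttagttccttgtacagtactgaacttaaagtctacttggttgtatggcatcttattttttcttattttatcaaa
In intron 1 of Notch2, which encodes a receptor that helps hold MuSCs in quiescence, 3 E-boxes stood next to each other at 73 to 86 bp from the region's centre, 2 of them CAGCTG and the other CACCTG. The Eml6 window held 4 E-boxes, none of them CAGCTG, and the nearest was 3 bp from the region's centre. A further Eml6 window at chr11:29809154-29809453 held 3 E-boxes, including a CAGCTG. The Pknox2 stretch had a single E-box, a CAGCTG at 687 bp from the centre of a wide region. The Ric8b window had a single CACATG at 209 bp from the centre. Over all 32851 RefSeq promoter windows of 300 bases, 72.3% held at least 1 CANNTG, 16.3% held CAGCTG and 20.2% held CAGGTG or its complement CACCTG. An E-box by itself is thus common in windows of this length, and the matches are a description of the letters. The Notch2 region scored 145, 73.7 and 93.8 in ASC MyoD libraries 1, 2 and 3, the Eml6 region 54.8, 56.3 and 75.6, and the Pknox2 region 111, 56.2 and 58.1. The Ric8b region scored 137 and 69.5 in libraries 1 and 2 and had no peak in library 3.

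Intronic peaks made up a larger part of the ASC MyoD lists than of the QSC MyoD or the ASC MyoG lists. They were 35.4%, 35.0% and 34.9% of the 2652, 2262 and 2296 peaks of ASC MyoD libraries 1, 2 and 3 (mean 35.1% ± 0.233, SD, n = 3). In QSC MyoD they were 20.5%, 22.3% and 21.8% of 171, 139 and 174 peaks (mean 21.5% ± 0.954). In ASC MyoG they were 21.3%, 21.2% and 21.8% of 916, 605 and 639 peaks (mean 21.4% ± 0.313). All 3 ASC MyoD libraries lay above all libraries of both other groups. The difference was 13.6 percentage points against QSC MyoD and 13.7 points against ASC MyoG, each with an exact two-sided permutation p-value of 0.1 (Benjamini-Hochberg adjusted 0.275 over 11 tests), the smallest that 3 libraries against 3 allow, so neither could pass 0.05. With peaks of a score of at least 80 alone, the QSC difference was 24.1 points, from 25 to 26 QSC MyoD peaks per library. Without crowded bins, which are defined below, the differences were smaller, at 12.1 points against QSC MyoD and 9.14 points against ASC MyoG. Leaving these bins out kept 688, 413 and 427 of the 916, 605 and 639 ASC MyoG peaks.

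With MyoG the order of the states was opposite. The intronic share of QSC MyoG peaks was 30.8%, 31.5% and 31.7% (of 120, 162 and 167 peaks), all above the ASC MyoG libraries, and the ASC minus QSC difference of the means was -9.95 points (exact permutation p-value 0.1, the smallest possible). That difference was -6.26 points without crowded bins (1-Mb bins with 10 or more peaks of a library) and -19.7 points at a score of at least 80, from 4 to 9 QSC MyoG peaks per library. Thus intronic peaks formed the larger share in ASCs for MyoD and the larger share in QSCs for MyoG.

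**Figure D1:**
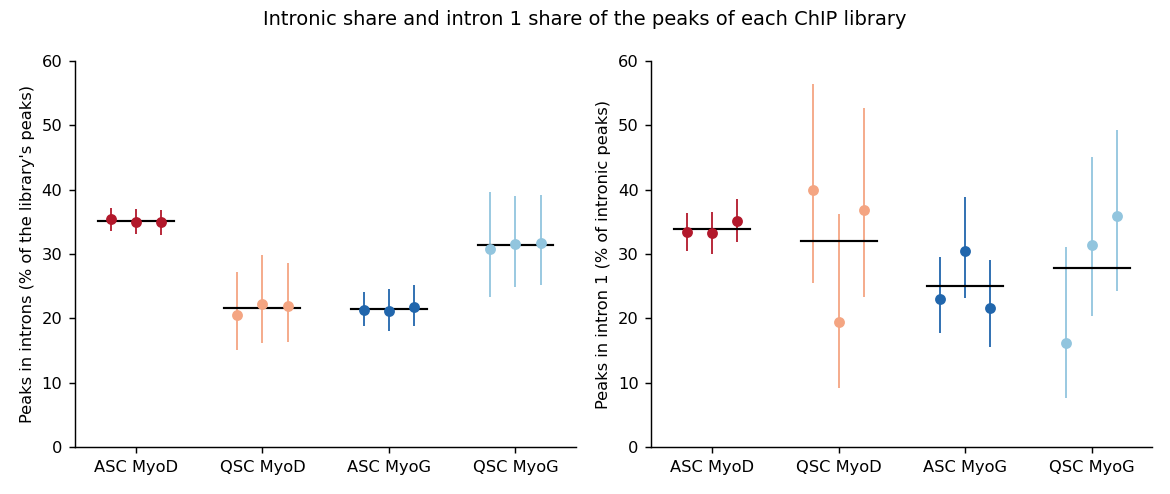
Percent of each library's peaks that are intronic (left) and percent of intronic peaks that lie in intron 1 (right), for the 3 libraries of each group. Points are libraries with 95% Wilson intervals and black lines are group means. The ASC MyoD libraries sit at 34.9% to 35.4% on the left, above the QSC MyoD and ASC MyoG libraries, and the groups overlap more on the right.

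Intron 1 held 239 of the 699 regions (34.2%, 95% Wilson interval 30.8% to 37.8%), and later introns held 460. If each region had been equally likely to fall in any intron of its transcript, a mean of 14.5%, or 101 regions, would have been in intron 1. That even spread ignores intron length, and first introns are often the longest, so the gap from 14.5% to 34.2% is not a measure of preference per base. Introns 2 and 3 held 113 and 86 regions against 85.5 and 67.5 under an even spread. From intron 4 on the order was turned, though intron 4 was near even with 56 against 57.8. Intron 5 held 39 against 50.6, introns 6 to 10 held 102 against 168, and introns beyond intron 10 held 64 against 168. Among the 417 regions in transcripts with at least 10 introns, 134 (32.1%) were in intron 1 against 5.97% under an even spread. The last intron held 67 of the 683 regions in transcripts with more than 1 intron (9.81%, against 12.5% under an even spread). The 738 intronic regions found in a single ASC MyoD library, which the rule left out, had 33.5% in intron 1 (30.2% to 37.0%).

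**Figure D2:**
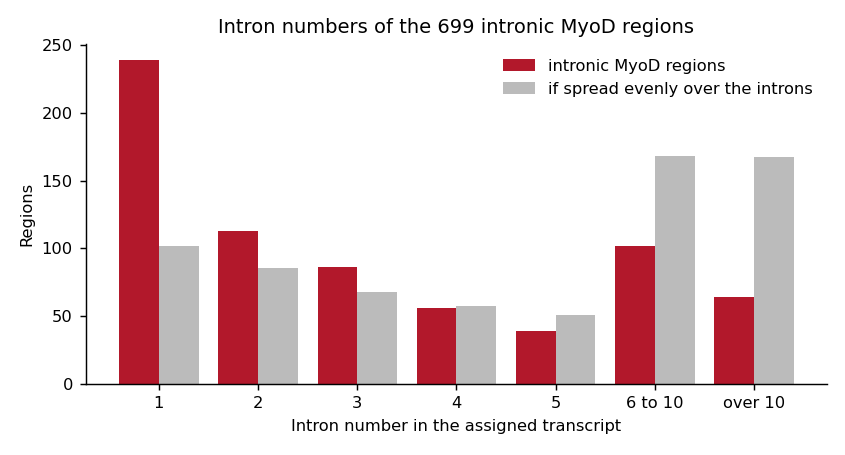
Number of intronic MyoD regions by the number of the intron in the transcript the authors' annotation names (red), beside the number under an even spread over all introns of that transcript (grey). Intron 1 holds 239 regions against 101, and introns beyond the tenth hold 64 against 168.

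The share of intronic peaks in intron 1 was steady across the ASC MyoD libraries and variable elsewhere. It was 33.4%, 33.2% and 35.2% in ASC MyoD (mean 33.9% ± 1.09, SD, n = 3), 23.1%, 30.5% and 21.6% in ASC MyoG (mean 25.04% ± 4.76) and 40.0%, 19.4% and 36.8% in QSC MyoD (mean 32.1% ± 11.1). ASC MyoD exceeded ASC MyoG by 8.87 points with no overlap (exact permutation p-value 0.1, adjusted 0.275). This difference was 16.4 points at a score of at least 80, where the ASC MyoG libraries held only 13 to 26 intronic peaks. Against QSC MyoD the difference was 1.85 points (exact permutation p-value 1), within the spread of the QSC libraries, whose 31 to 38 intronic peaks gave wide intervals, such as 9.19% to 36.3% in library 2. Its direction turned without replicate 2, to -4.16 points, and at a score of at least 80, to -33.5 points from 2 or 3 intronic QSC MyoD peaks per library.

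Regions of intron 1 lay closer to a start of their gene, as their position requires, but few were beside it. For 511 regions the RefSeq tables gave a TSS of the host gene and the region lay inside that gene. The distance to the nearest such TSS had a median of 17.2 kb in intron 1 (quartiles 9.45 and 33.3 kb, 163 regions) and 70.1 kb in later introns (quartiles 29.9 and 136 kb, 348 regions). Within 10 kb of a TSS were 43 of the intron 1 regions (26.4%) and 20 of the later ones (5.75%). Beyond 100 kb were 4 intron 1 regions (2.45%) and 125 later ones (35.9%). The farthest were a pair in intron 3 of Pde4d, which encodes a cAMP phosphodiesterase, at 1011 and 891 kb, and a region in intron 5 of Lrmda at 632 kb. Since peaks within 3 kb of an annotated TSS were classed as promoter peaks, the part of intron 1 nearest the start is outside these counts.

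**Figure D3:**
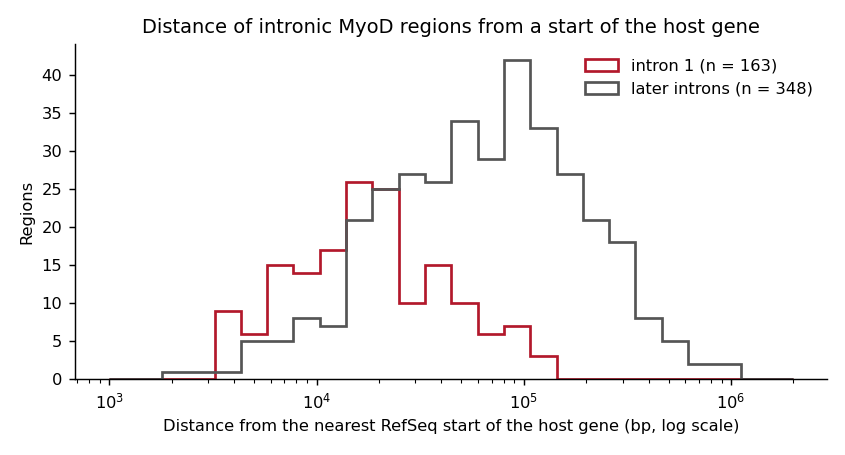
Number of intronic MyoD regions by distance in bp (log scale) from the nearest RefSeq TSS of the host gene, for 163 regions of intron 1 (red) and 348 of later introns (grey). The intron 1 distribution is centred near 17.2 kb and the later one near 70.1 kb.

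Host genes were long. The 699 regions lay in 579 host genes, of which 484 held 1 region, 78 held 2 and 17 held 3 or more. The 568 hosts matched to RefSeq had a median length of 125 kb, against 17.1 kb for all 21900 RefSeq protein-coding genes and 28.8 kb for 408 matched genes with a promoter MyoD region. Of all protein-coding genes, 2.46% (538) hosted an intronic MyoD region. By gene length the share rose from 2 of 7938 genes under 10 kb to 96 of 9017 from 10 to 50 kb (1.06%), 4.73% from 50 to 100 kb, 9.38% from 100 to 200 kb and 18.8% of the 990 genes of 200 kb or more. Of the 579 hosts, 49 also had a promoter MyoD region (8.46%) and 41 a distal intergenic one (7.08%), so 493 were marked by intronic regions alone among these 3 classes. Put the other way, 11.1% of the 441 genes with a promoter region hosted an intronic one, beside 2.46% of all protein-coding genes. For the 618 genes with a distal region the share was 6.63%. The part of gene length in these shares was not tested. The regions lay on 20 chromosomes, from 9 on chromosome X to 62 on chromosome 2.

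The host name of some regions depends on the gene model. RefSeq placed 660 of the 679 regions with a matched host inside the gene of that name and 19 outside it, and a host was not matched for 20. Galnt2l headed the hosts with 9 regions, all in intron 1, spread from 120213851 to 123883825 on chromosome 8. In RefSeq, 3 of these lie in Gse1, 2 in Cbfa2t3, 1 in Slc7a5 and 3 in no protein-coding gene. The 3 regions given to intron 2 of Fgfr2 start at 132355862, 132747818 and 132992594 on chromosome 7, whereas RefSeq Fgfr2 spans 130162451 to 130266808 and the latter 2 regions lie in Fam53b and Ctbp2. Without the Galnt2l regions 33.3% of members were in intron 1, and with only the 660 inside the RefSeq gene 32.4%.

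In the 383 regions with a peak in all 3 ASC MyoD libraries, the outermost peak centres were a median of 108 bp apart, in 174 they were within 100 bp, and the largest distance was 904 bp. Peaks shared a region because they overlapped, so these distances describe the merged regions. Median region width was 981 bp (505 to 1925). All peaks of a region fell in the same class in 693 of the 699. A peak in all 3 libraries was present in 54.8% of the intronic regions and in 55.8% of all 1985 regions, a count the rule used and from which nothing is read. The 316 regions with 2 libraries lacked a peak in library 1 in 70 cases, in library 2 in 117 and in library 3 in 129, and library 1 also held the most peaks. Over regions with a peak in both libraries, Spearman's rank correlation of the scores was 0.557 (libraries 1 and 2, 512 regions), 0.569 (1 and 3, 500) and 0.593 (2 and 3, 453), a description across regions that share the selection for a peak.

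Scores and recurrence were among the values that chose the regions and are described without a test. Scores of different libraries are not on one scale, so mean scores and SDs over libraries in this report also hold differences between libraries. Some of these means cover only 2 libraries. The median score of intron 1 against later regions was 88.1 and 87.3 in library 1, 80.9 and 81.2 in library 2, and 77.6 and 80.6 in library 3, a mean difference of -0.813 (range -3.01 to 0.800). Intronic medians of 87.3, 81.1 and 78.9 stood beside promoter medians of 86.2, 82.5 and 79.99 and distal medians of 89.7, 83.1 and 78.8. The order of the classes was not the same in the 3 libraries. A peak of another ASC MyoD library overlapped 67.1%, 73.9% and 72.3% of intronic peaks in libraries 1, 2 and 3. For promoter peaks the shares were 67.6%, 74.9% and 72.3%, and for distal peaks 70.1%, 70.3% and 69.7%.

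Among intron 1 regions with a peak in all 3 libraries, the mean within-list percentile rank of the score was highest at Lmnb2, which encodes lamin B2, with scores of 584, 398 and 588 in libraries 1, 2 and 3. Next was Pstpip2, which encodes a membrane-bending F-BAR protein, with 508, 365 and 381. Shb, the gene of an SH2-domain adaptor of receptor tyrosine kinases, followed with 326, 352 and 406 (chr4:45472503-45473893). Hsf1, the main transcription factor of the heat shock response, had 431, 299 and 254 (chr15:76485075-76485940). These 4 regions lay far above the median score of each library in all 3, as their choice by score rank requires. Airn, the noncoding RNA that runs antisense to the imprinted gene Igf2r, had 375, 341 and 241 at a site that RefSeq places within Igf2r as well, so the 2 genes cannot be told apart here. The rest of the first 10 were Rnf217, Gm11973, Hip1, Agap1 and Arpp21, with mean scores from 260 to 304.

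In later introns the highest ranks were at Olfml2b and Aida. Aida, which encodes an axin-interacting protein, scored 537, 564 and 525 in intron 4 (chr1:183309360-183310391), with the smallest SD of the 20 leading regions. Tcf12, whose product is an E-protein partner of MyoD, scored 376, 329 and 490 in intron 13 of 20 (chr9:71874392-71875439). Ptp4a2, a prenylated phosphatase gene, had 435, 326 and 338 in its last intron, and a neighbouring region of that intron, 1.60 kb away, had 210, 173 and 102. Ppp1r13b, which encodes the p53-binding protein ASPP1, had 386, 307 and 386 in intron 4 and a lower-scoring region 1.37 kb away with 95.3, 58.8 and 54.2. Zfp568, a zinc finger gene, had a pair in intron 6 only 1.35 kb apart, with 424, 265 and 219 in the one and 435, 216 and 411 in the other. Mnat1, Ddc and Syne3 completed the 10.

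**Figure D4:**
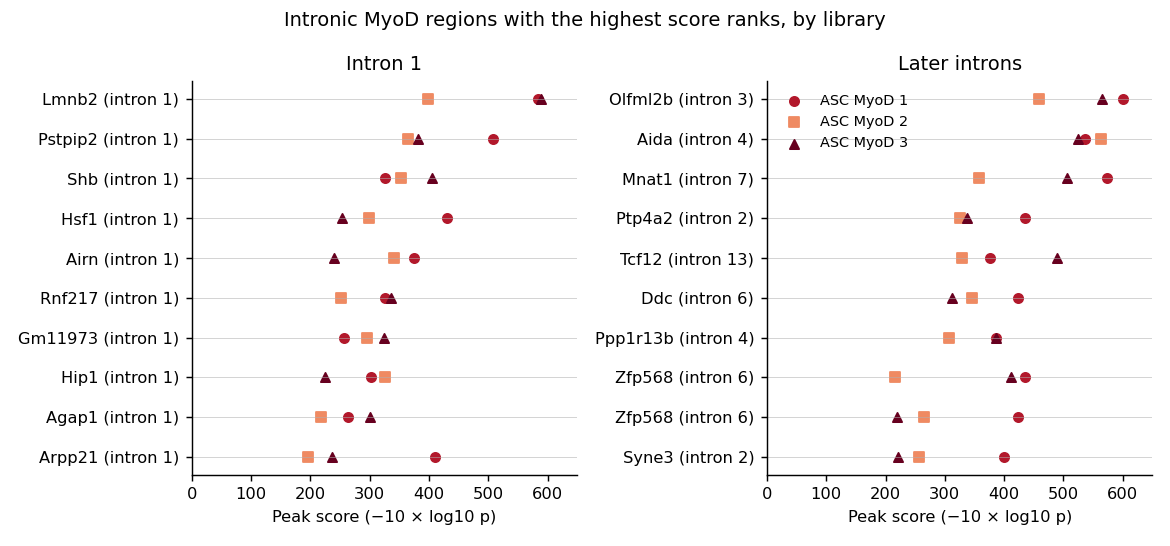
Peak scores in each of the 3 ASC MyoD libraries for the 10 regions of intron 1 (left) and of later introns (right) with the highest mean score ranks. Circles, squares and triangles are libraries 1, 2 and 3, and all points lie between 196 and 601.

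Hosts with several regions mixed sites of high and low score. Among the 95 hosts with 2 or more regions there were 120 pairs of neighbours, 64 of them in the same intron, with a median distance of 33.8 kb. Cap2, which encodes an actin-regulating cyclase-associated protein of striated muscle, had 4 regions in introns 1, 3, 6 and 7, with mean scores of 126 ± 35.4, 83.0 ± 21.1, 80.4 ± 19.1 and 191 ± 64.1 (SD, n = 3). Aopep had 4 regions, 3 of them in intron 4. Tead1, the gene of a TEA-domain factor that binds muscle promoters, had 3, of which a pair in intron 9 lay 1.68 kb apart. These scored 146, 169 and 227 (chr7:112883530-112884605) and 284, 257 and 224 (chr7:112885251-112886250), while the region in intron 2 had only 70.6 and 72.2 in libraries 1 and 3. Septin9, Enox1, Mnat1 and Sil1 each held 3 regions. Ppargc1b, which encodes the mitochondrial coactivator PGC-1β, held 3 in intron 1, and the lowest had 66.8 and 56.0 in libraries 1 and 2 and none in library 3.

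Muscle regulator genes held intronic regions mainly in later introns, where 460 of all 699 regions lay as well. Of 69 genes on the list, 10 (14.5%, 95% Wilson interval 8.07% to 24.7%) hosted 14 regions, 8 of them with a peak in all 3 libraries, beside 2.46% of all protein-coding genes. Genes of this list are also longer, with a median of 30.2 kb against 17.1 kb. The median of the regions' mean scores was 93.3, against 81.8 over all 699. Intron 1 held 1 of the 14 (7.14%, beside 34.2% of all 699), in Eya2, with 53.0, 85.2 and 50.3. Tead1 alone gave 3 of the 14. Tead4, a TEA-domain gene, scored 202, 231 and 164 in intron 8 (chr6:128236179-128237980). Runx2, known as the osteoblast master regulator, scored 182, 140 and 212 in its last intron. Tcf4, a further E-protein gene, had 2 regions in introns 5 and 6, the latter with 114, 106 and 104. Mrtfa, Runx1, Sox6 and Zeb2 had regions with peaks in 2 libraries only.

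In sarcomere and calcium-handling genes the regions of intron 1 numbered 9 of 16 and 7 of 12, beside 34.2% of all 699. Hosts were 12.2% and 11.0% of the genes on these lists, beside 2.46% of all protein-coding genes, and the genes are longer, with medians of 42.3 and 65.6 kb against 17.1 kb. No test was made on any gene list. On the sarcomere and cytoskeleton list 12 of 98 genes (7.15% to 20.2%) hosted the 16 regions, 14 with all 3 libraries (median mean score 94.9). Utrn, the gene of the dystrophin homologue utrophin, had 232, 315 and 123 in intron 1 (chr10:12820730-12821842), Actn2, which encodes the Z-disc protein α-actinin-2, had 133, 118 and 193, and Myl1, a fast myosin light chain gene, had 70.2, 111 and 113. Neb, whose 156 introns were the most of any assigned transcript, had 70.8, 61.0 and 65.2 in intron 10. Among calcium-handling genes, 11 of 100 (6.25% to 18.6%) hosted the 12 regions, 7 with all 3 libraries (median mean score 99.2). Ryr3, a ryanodine receptor gene, had 231, 208 and 157 in intron 1 of 102. Cacna1s, which encodes the voltage sensor of skeletal muscle, had 207, 120 and 123 in intron 2. Casq2 had 59.8 and 55.6 in libraries 2 and 3 and no peak in library 1.

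Receptor and adhesion genes were also hosts, and their shares stand beside 2.46% of all protein-coding genes. Genes of these lists are longer, with medians of 47.3 kb (signalling) and 49.5 kb (matrix and adhesion) against 17.1 kb. Signalling receptors and kinases were hosts in 14 of 153 cases (9.15%, 5.53% to 14.8%), with 19 regions, 14 of them in all 3 libraries (median mean score 91.0), and 3 of the 19 are the Fgfr2 regions outside RefSeq Fgfr2. Met, the receptor of hepatocyte growth factor, an activator of MuSCs, scored 252, 218 and 149 in intron 4 (chr6:17515691-17516797). Notch1 scored 96.6, 126 and 53.1 in intron 2. Rptor, an mTORC1 subunit gene, scored 188, 107 and 93.4 in intron 1. Of 253 matrix and adhesion genes 14 were hosts (5.53%, 3.32% to 9.07%; 19 regions, 14 in all 3 libraries, median mean score 91.8). Itga7, the muscle laminin receptor subunit, had 262, 163 and 335 in intron 1, and Adam12, a metalloprotease gene of regenerating muscle, had 220, 197 and 190, also in intron 1.

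Hosts made up 2.86% of cell cycle, 2.26% of mitochondrial and 6.33% of chromatin genes, beside 2.46% of all protein-coding genes. Chromatin genes were hosts in 10 of 158 cases (3.47% to 11.3%; 10 regions, 6 in all 3 libraries, median mean score 71.0), with Chd7, a chromatin remodeler gene, at 131, 170 and 182. Cell cycle genes were hosts in 3 of 105 (0.976% to 8.07%; 6 regions, 3 in all 3 libraries, median mean score 102). Their hosts were Mnat1, a subunit gene of the CDK-activating kinase, Ccnd3 (cyclin D3), with 128, 80.9 and 99.1 in its higher-scoring intron 1 region, and Rb1, with 121 and 82.7 in libraries 1 and 2. Mitochondrial genes were hosts in 7 of 310 (1.10% to 4.59%; 11 regions, 8 of them in intron 1 and 8 in all 3 libraries, median mean score 91.0). Besides Ppargc1b these included Cs, the citrate synthase gene, with 83.1, 89.6 and 57.0, and Mcu, the mitochondrial calcium uniporter gene, with 107 and 71.1 in libraries 1 and 2. The mitochondrial list's genes were short, with a median of 9.50 kb. Median gene length was 47.8 kb on the chromatin list and 16.9 kb on the cell cycle list, against 17.1 kb for all protein-coding genes.

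Few intronic MyoD regions of ASCs had a peak in any of the other 9 ChIP lists, which the rule did not use. No such peak was found for 660 of the 699 (94.4%). In QSC MyoD libraries 1, 2 and 3, 1, 3 and 3 of the regions had a peak, in ASC MyoG 13 in each library, and in QSC MyoG 1, 3 and 2. A peak in at least 1 QSC MyoD library was found at 5 regions (0.715%, 95% Wilson interval 0.306% to 1.66%), beside 0.453% of all 1985 ASC MyoD regions. For ASC MyoG the number was 32 (4.58%, 3.26% to 6.39%), beside 3.73% of all regions, and for QSC MyoG it was 4 (0.572%, 0.223% to 1.46%), beside 0.504%. Each share of the intronic regions was near that of all regions.

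ASC MyoG libraries shared more of the regions than QSC MyoG libraries did, as they did of all 1985 ASC MyoD regions. The mean was 13.0 against 2.00 ± 1.00 (SD, n = 3), a difference of 11.0 regions with no overlap (exact permutation p-value 0.1, adjusted 0.275, the smallest possible before adjustment). The regions were chosen in ASC libraries alone, which could favour ASC lists from the outset, so no conclusion is drawn from this p-value. Each ASC MyoG library had a peak at 1.86% of the intronic regions, beside 1.51%, 1.46% and 1.56% of all regions in libraries 1, 2 and 3. QSC MyoG libraries 1, 2 and 3 had one at 0.143%, 0.429% and 0.286% of the intronic regions. Their shares of all regions were 0.101%, 0.353% and 0.202%. ASC MyoG lists held 605 to 916 peaks and QSC MyoG lists 120 to 167, and the part of peak number in the difference between these groups was not tested. At a score of at least 80 in every list, the difference was 1.33 regions, and 4 of 289 regions had an ASC MyoG peak. QSC MyoD against QSC MyoG gave 2.33 ± 1.15 and 2.00 ± 1.00 regions per library (exact permutation p-value 1), a difference within the spread.

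**Figure D5:**
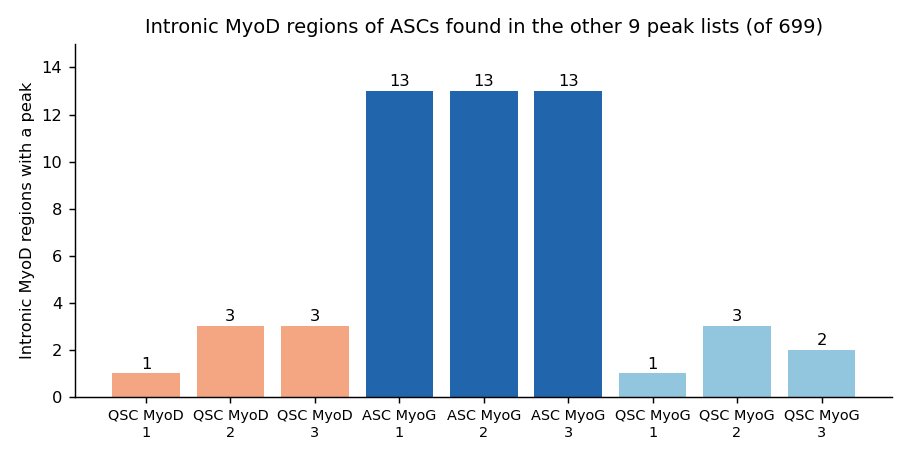
Number of the 699 intronic MyoD regions of ASCs with a peak in each of the other 9 lists. Every ASC MyoG library has 13, and the 6 QSC libraries have 1 to 3.

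A peak of MyoG in ASCs was more frequent at the regions of high MyoD score, a description without a test. Of the 32, 29 had MyoD peaks in all 3 libraries, beside 383 of the 699 (54.8%). A mean percentile rank of at least 90 was held by 14 of the 32, and 72 of the 699 lay there. Put the other way, 19.4% of these 72 had an ASC MyoG peak, against 1.08% (3 regions) of the 278 below a rank of 50. The split used the MyoD scores that chose the regions. It was not made for promoter or distal regions, so it is not shown to be particular to introns. Intron 1 held 8 of the 32, which is 3.35% of intron 1 regions (1.71% to 6.46%) against 5.22% of later ones (3.53% to 7.65%), with overlapping intervals. Only 2 regions had a peak in all 3 ASC MyoG libraries and 3 in 2 of them, while 27 had a peak in 1. Intron 7 of Mnat1 scored 68.6, 70.1 and 88.7 with MyoG in ASCs, against 574, 358 and 505 with MyoD. Plxna1, which encodes a semaphorin receptor, scored 94.9 and 52.3 in ASC MyoG libraries 1 and 2 (intron 3), Nckap5 55.2 and 60.4 in libraries 2 and 3 (intron 1), and Cap2 53.0 and 68.7 in libraries 1 and 2 (intron 7). Tcf12 had a single ASC MyoG peak, of 92.5 in library 2, at the region of intron 13. The Notch2 region with the adjacent E-boxes had one of 55.6 in library 2.

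In QSCs the overlap came down to single low peaks, apart from Dpp9. Intron 10 of Dpp9, a dipeptidyl peptidase gene, had a peak in all 9 other lists, with 92.2, 86.3 and 79.4 in QSC MyoD, 106, 179 and 128 in ASC MyoG and 108, 108 and 91.4 in QSC MyoG, beside 76.1, 136 and 71.1 in ASC MyoD. This was the only region of the 699 with a peak in more than 3 other lists. The other QSC MyoD peaks were at Aida (53.6 in library 3), Tead4 (53.9 in library 3), Esr1 (52.9 in library 2) and 1110059E24Rik (55.3 in library 2), all in later introns and all just above the lowest listed score of 50. No QSC MyoD peak overlapped any of the 239 regions of intron 1, a count of 0 that allows a share of up to 1.26% taken as 3 counts of 239, or 1.58% as the upper Wilson limit. With QSC MyoG the other peaks were at Gm11973 (54.7), Iffo1 (64.9) and Neurl1a (56.7).

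At the edge of the rule, the members with the lowest top scores were in Oxr1 (51.2 and 51.0 in libraries 2 and 3), Bcar1 (52.6 and 52.4 in libraries 1 and 3) and Morn1 (52.1 and 52.8 in libraries 1 and 3). Just outside it, among intronic regions found in a single library, the highest scores were at Acvr2b (167, intron 1, chr9:119408859-119410001), Ablim3 (148) and Pgm5 (129), all in library 1. The 738 single-library regions had a median score of 58.9, against a median top score of 99.2 in the members.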

How the data were processed

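MyoD and MyoG were profiled by ChIP-seq in QSCs and ASCs, and 12 peak lists were used. Per the labels and the submitters' processing notes, the authors' tools were BWA 0.7.5, MACS and deepTools 3.5.0, with the build mm10. The deposited files give, for each library separately, the start and end of each peak (other: positions in bp), a gene, a gene part and a score of −10 × log10 p. Deposited scores began at 50, and that corresponds to a p-value of 1e-05. The MACS version, use of input, filters and read depth are not given in the sources used here, so intervals (95% Wilson) cover counting error of peaks or regions only, and scores describe calls rather than binding strength.

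The members and gene lists were chosen with earlier results of these data known. Regions were called as the report states and the scripts were tested on simulated lists. Host genes and intron numbers were read from the annotation text, which names 1 transcript per peak. Libraries were the replicates: shares and numbers were compared by exact permutation over the 20 relabelings of 3 against 3, and differences within libraries by exact sign-flip, with Benjamini-Hochberg adjustment over all 11 tests. The 5 tests within libraries used values that chose the regions, and their p-values are not reported. Gene lengths, TSS and promoter windows came from RefSeq tables of GRCm38.p6, and the host matched by symbol or synonym for 679 of 699 regions. Named regions were the 10 of highest mean percentile rank in intron 1 and in later introns, up to 10 with peaks in most other lists, hosts with 3 or more regions, up to 6 per gene list, the 3 lowest members with the 3 highest single-library regions, and the 3 farthest from a TSS. Others were chosen after their values were seen. The result of 1 gene list is not reported here. Alternatives were a score of at least 80, gaps of 500 bp, 50% overlap, all 3 libraries, class by majority, removal of 1-Mb bins with 10 or more peaks of a library, blocking by replicate number, and omission of each replicate. Python 3.11.15, pandas 2.3.3, NumPy 2.4.6 and SciPy 1.17.1 were used.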

Additional observations from a re-analysis of the deposited data

Results flagged for a closer look

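The intronic share of peaks moved in opposite directions with the 2 antibodies. It was 13.6 percentage points higher in ASCs than in QSCs for MyoD (35.1% against 21.5%) and lower for MyoG (21.4% against 31.4%, a difference of -9.95 points), with no overlap between libraries in either case. The difference between these differences was 23.5 points, with an exact p-value of 0.005 from permuting the state labels within each antibody, the smallest that the 400 relabelings allow. The null of this permutation was no state difference for either antibody, so the p-value is not one for equality of the 2 differences. The test was not planned and was chosen after the shares had been seen. The difference was 43.9 points at a score of at least 80, where QSC MyoG libraries held 4 to 9 peaks, and 18.3 points without crowded bins (exact permutation p-value 0.005 in both). With a replicate number left out it was 23.1 to 23.8 points, and the exact permutation p-value was 0.0556, the smallest that 2 libraries per group allow.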

How the results depend on the processing

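Of 89 alternative values for 17 results, 74 were rated unchanged, 6 moved, 6 reversed and 3 weaker. For region counts and the intron 1 percent, which have no direction or threshold, unchanged meant only a value near the main one. Unchanged numbers of intronic regions ran from 502 to 702, beside 699. No planned comparison, between groups or within libraries, could reach 0.05, so its side of that threshold was fixed beforehand. At a score of at least 80 the number of intronic regions was 289, with all 3 libraries required it was 383, and with a replicate left out it was 455 to 511, lowest without replicate 1. Of the 289 regions called anew at a score of at least 80, 0, 4 and 0 had a QSC MyoD, ASC MyoG or QSC MyoG peak of that score. The Dpp9 region, with ASC MyoD scores of 76.1, 136 and 71.1, was not among these 289. Its QSC peaks reached 92.2 with MyoD and 108 with MyoG. The intron 1 difference between ASC MyoD and QSC MyoD turned to -33.5 points at that score and ranged from -4.16 to 6.09 with a replicate left out. The score difference between intron 1 and later introns ranged from -1.62 to 0.285 with a replicate left out. The score difference from distal regions turned to 1.21 among regions with all 3 libraries, and the found-again difference from distal peaks turned to -0.787 at a score of at least 80 and ranged from -0.936 to 2.56 with a replicate left out. The difference of the MyoD and MyoG state effects on the intronic share ranged from 23.1 to 23.8 with a replicate left out. Why these values moved was not tested.

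Replicate numbers are shared by the groups, but deviations of same-numbered libraries in class shares correlated from -0.751 to 0.0933 over the 6 pairs of groups, so these values give no sign of pairing, and the labels do not tie the numbers to mice. With a replicate block, differences in intronic share ranged from 12.7 to 14.9 points against QSC MyoD and from 13.2 to 14.1 against ASC MyoG, those in intron 1 share from -6.63 to 13.9 and from 2.74 to 13.6, and those in regions per library from 10 to 12 and from 0 to 1. The exact sign-flip p-values in these blocked comparisons were 0.25 or 1, and the block changed no call. The E-box counts planned over windows of all regions were not run, since region sequences were not used here. Depth is unknown, so the absence of a listed peak does not show absence of binding.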

Other observations

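Noncoding RNA genes hosted 35 of the regions by RefSeq biotype. The highest scores outside Airn were at Nctc1, a noncoding gene of the imprinted Igf2 and H19 domain, with 393, 195 and 196 in ASC MyoD libraries 1, 2 and 3 (chr7:142550534-142551786, intron 2 of 2), 7.44 kb from its TSS. Morrbid had a pair of regions in intron 2 (231, 123 and 149 in the one, 96.0 and 68.7 in libraries 1 and 2 in the other). Pvt1, which neighbours Myc, had regions in introns 1 and 4 with mean scores of 60.8 and 111 over 2 libraries each. These genes were chosen after their values were seen.

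Across all classes, a further ASC MyoD region lay within 10 kb of 74 of the 699 (10.6%), and the median distance to the nearest one was 169 kb. RefSeq placed 17 of the intronic regions within 3 kb of a TSS of some gene in its table, 5 of them in intron 1, and 10 inside more than 1 protein-coding gene.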
